A study of Mus musculus with 18 samples.

Results

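Voltage-gated potassium channel subunits were followed in the ventral tegmental area (VTA) and nucleus accumbens (NAc) of mice that had or had not been through social defeat. The genes were those whose symbol in the array's probe-to-gene table starts with Kcn followed by a, b, c, d, e, g, h, q, s or v, with Kcnq3 and Kcnh3 left out, and each gene was represented by the probe with the highest mean over all 18 arrays. The rule found 40 of the 17274 genes that the table names. Of these, 39 are listed as protein coding, and Kcnq1ot1 is an antisense RNA of the Kcnq1 locus that encodes no subunit. The 40 genes have 64 probes on the array; 27 genes have 1 probe and 13 have several.

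The study asked which transcripts go with vulnerability or resilience to social defeat, in which an intruder mouse meets an aggressor and defeated mice are then sorted by social avoidance. All animals were male c57bl/6J mice aged 10.5 weeks. The groups were VTA and NAc of defeated susceptible mice, of defeated unsusceptible mice and of non-defeated control mice. Each of the 6 groups had 3 arrays, and each array held amplified, biotin-labelled RNA pooled from 4 animals. The labels name no transgene and no drug, and do not say whether the VTA and NAc pools came from the same animals.

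Voltage-gated potassium channels open when the membrane depolarizes and let potassium leave the cell, which ends the action potential, sets firing rate and holds back excitability between spikes. The pore is a tetramer of Kcna (Shaker type), Kcnb (Shab type), Kcnc (Shaw type), Kcnd (Shal type), Kcnq or Kcnh subunits. Kcng, Kcns and Kcnv subunits form no channel alone and modify Kcnb pores, and Kcnab and Kcne proteins are auxiliary. In the VTA such channels shape the pacemaking and bursting of dopamine neurons, and in the NAc they shape the firing of medium spiny neurons.

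Signals were placed on a log2 intensity scale after quantile normalization, and the mean of all probes had a median of 7.39. Between structures, the dopamine neuron genes (Th, Slc6a3, Slc18a2, Ddc, Nr4a2 and Pitx3) were all higher in VTA, 6 of 6 with a median log2 difference of 4.01, and the medium spiny neuron genes were all lower, 4 of 4 measured with a median of -4.14. One VTA array stood apart. In VTA unsusceptible pool 3 the dopamine list averaged 9.85, against 11.49 to 12.26 in the other VTA pools and 8.06 to 8.27 in NAc pools, and its score on the first principal component was 26.6, against 36.37 to 41.88 for the other VTA pools. A pair of NAc arrays differed in scanner brightness: unsusceptible pool 3 had an upper quartile of 833.2 and control pool 3 one of 287.3 before normalization. Where leaving out 1 pool moved a named difference between behaviour groups within a structure by over 1.5 times, the value without that pool is given too.

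The largest differences within the family were between the structures. Kcng4, Kcnc4, Kcnab3, Kcnh2, Kcne1l, Kcna2, Kcna6 and Kcnc2 were higher in VTA, and Kcnh1, Kcnab1, Kcna5, Kcnq5, Kcna4, Kcnd2, Kcns2, Kcnh5, Kcna1, Kcng2 and Kcnd1 were lower. Kcnc1 was also lower on its brightest probe, but its other probe went the opposite way. With limma and Benjamini-Hochberg adjustment over all 44505 probes, 20 of 40 genes passed an adjusted p of 0.05 between 9 VTA and 9 NAc pools, 8 higher and 12 lower. The background was 28.0% of all probes (14.6% higher and 13.5% lower) and 40.8% of the brightest probes of all named genes (22.8% higher and 18.0% lower). The share of 20 of 40 lay near that of the brightest probes, so the count is not a result about the family. The median absolute log2 difference was 0.17 over the 40 genes, against 0.0752 over all probes and 0.112 over the brightest probes of named genes. In tissue, a lower signal from fewer cells of a type and one from less RNA per cell cannot be told apart.

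Brightness divided the family. Of the 40 genes, 12 had a mean below the median probe (Kcna7, Kcna10, Kcne1, Kcne2, Kcne3, Kcng3, Kcnh4, Kcnh8, Kcns3, Kcnv1, Kcnv2 and Kcnq1ot1), and none of them was called; their largest difference was 0.14 in size. Of the 28 brighter genes, 20 were called. Over all named genes, 6.31% of those below the median probe and 57.6% of those above it were called. A signal this low gives no ground to say that a gene is not expressed, and levels of different probes cannot be ranked against each other.

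**Figure D1:**
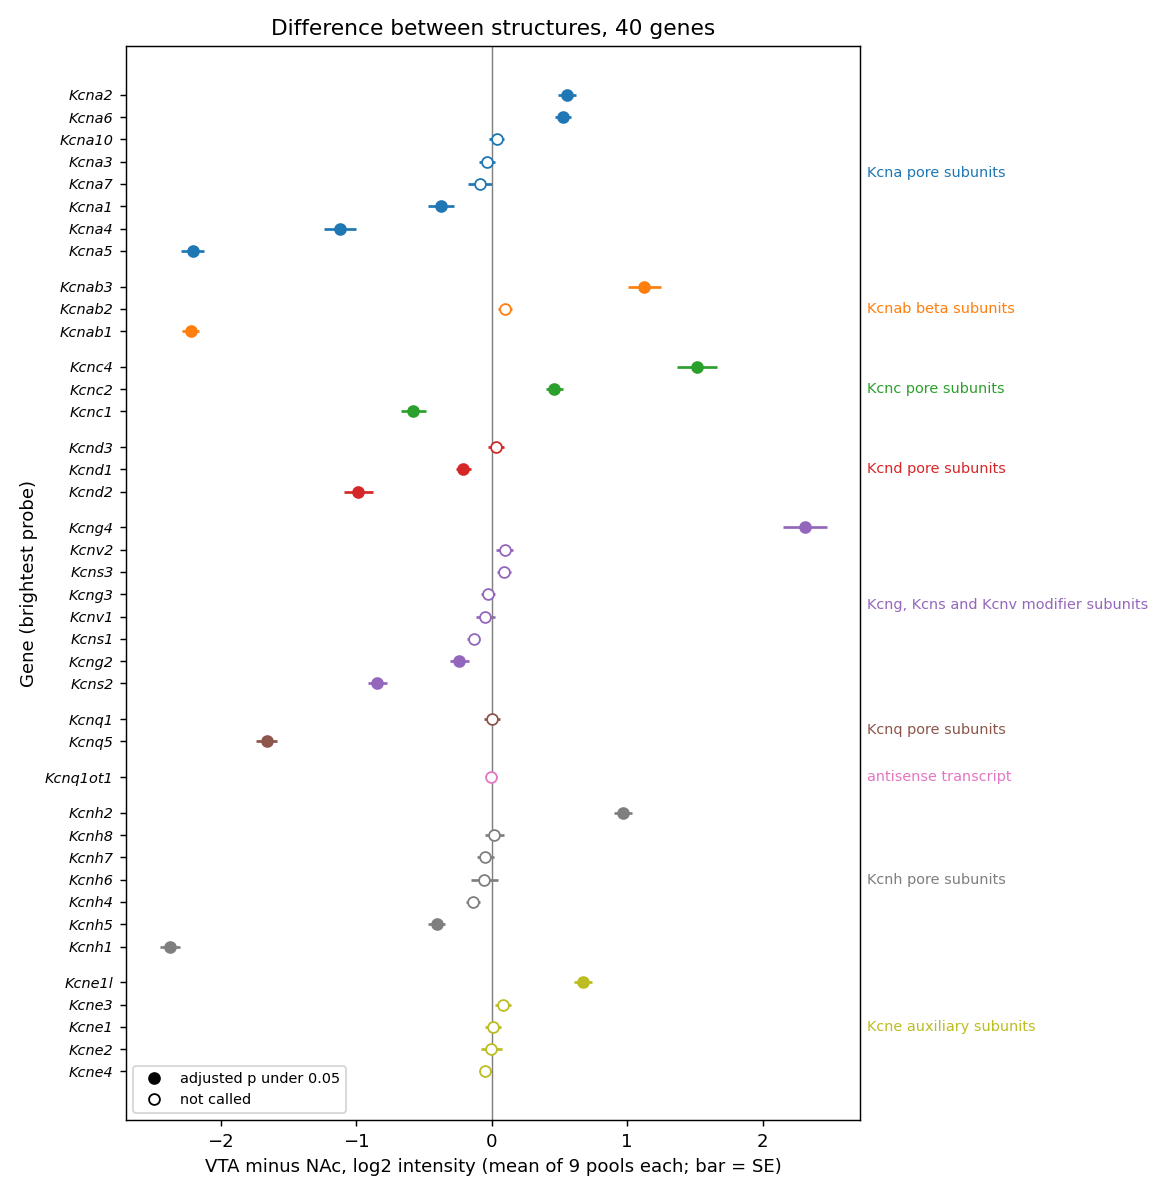
Difference in log2 intensity between VTA and NAc for the brightest probe of each of the 40 genes, grouped by subunit class, with the standard error as a bar (9 pools each). Filled symbols passed an adjusted p of 0.05; the values run from -2.38 for Kcnh1 to 2.31 for Kcng4, and each class with over 2 members holds both called and uncalled genes except the Kcnc class, where all 3 were called.

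Among the Shaker-type Kcna genes, whose channels open near threshold and often sit in axons, 2 of 8 were higher in VTA, 3 were lower and 3 were not called. Kcna5, which encodes a delayed rectifier best known from heart and smooth muscle, had a lowest, median and highest log2 intensity of 7.69, 7.81 and 8.26 in VTA pools, against 9.57, 10.07 and 10.39 in NAc pools. No VTA pool reached the NAc range, and the difference of -2.21 ± 0.08 (SE) meant a 4.62-fold lower intensity (adjusted p = 6.74e-17, limma). Kcna4, the Shaker-type subunit that inactivates fast by itself, ran from 7.52 over 7.67 to 8.24 in VTA and from 8.26 over 8.90 to 9.43 in NAc. It was 2.17-fold lower in VTA (adjusted p = 1.61e-08, limma), and its highest VTA pool, unsusceptible pool 3, lay just below its lowest NAc pool, control pool 3.

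Kcna1, the axonal subunit whose loss causes seizures in mice, averaged 7.83 ± 0.27 in VTA and 8.20 ± 0.18 in NAc (SD, n = 9 each). Its pools overlapped, and the difference of -0.38 ± 0.10 had an adjusted p of 0.00308 in the limma fit. Kcna2, which pairs with Kcna1 beside the nodes of Ranvier, went the other way, at 10.30 ± 0.14 in VTA and 9.74 ± 0.15 in NAc without overlap (log2 difference 0.56, adjusted p = 1.71e-07, limma). Kcna6, a further axonal Shaker-type subunit, averaged 12.88 ± 0.10 in VTA and 12.35 ± 0.15 in NAc, again without overlap (0.53, adjusted p = 3.29e-08, limma). Both probes of Kcna6 were called higher. Kcna3, known from lymphocytes and microglia, differed by -0.03, and Kcna7 and Kcna10 by -0.09 and 0.04; none of the 3 passed.

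The 3 beta subunits, cytoplasmic partners of Shaker-type pores, split. Kcnab1, which confers fast inactivation on them, had 10.35, 10.45 and 10.75 as lowest, median and highest VTA values, against 12.42, 12.72 and 12.95 in NAc. The gap between the structures was wide next to the spread, with a difference of -2.22 ± 0.06 or 4.67-fold lower in VTA (adjusted p = 1.05e-19, limma). Of its 5 probes, 2 were called lower and 3 were not called. Kcnab3 ran from 10.19 over 11.11 to 11.34 in VTA and from 9.29 over 9.82 to 10.35 in NAc, and was 2.18-fold higher in VTA (adjusted p = 3.10e-08, limma). The overlap came from VTA unsusceptible pool 3, the only VTA pool below 10.35. Kcnab2, which promotes surface delivery of the pore, averaged 13.41 in VTA and 13.31 in NAc and was not called (adjusted p = 0.170, limma).

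All 3 Shaw-type Kcnc genes were called, 2 higher and 1 lower. These subunits make the high-threshold, fast-closing channels of fast-spiking neurons. Kcnc4 was even across VTA, with 12.68, 12.80 and 12.93 as lowest, median and highest values, and scattered across NAc, with 10.30, 11.39 and 11.87. The difference was 1.52 ± 0.15, or 2.86-fold higher in VTA (adjusted p = 5.94e-09, limma), and both of its probes were called higher. The SD over 9 pools was 0.08 in VTA and 0.52 in NAc. Kcnc2 averaged 8.44 ± 0.21 in VTA and 7.98 ± 0.10 in NAc without overlap (0.46, adjusted p = 1.14e-06, limma), and 2 of its 6 probes were called, both higher. Pvalb, Gad1 and Tac1 were read together as a list, of which Gad1 and Tac1 are not confined to fast-spiking neurons. Of the 3 genes, 1 was higher in VTA and 2 were lower (median -0.78). On the log2 scale Pvalb differed by 2.59, Gad1 by -0.78 and Tac1 by -3.18. Their part in the Kcnc values was not tested.

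Kcnc1 gave opposite answers from its 2 probes. The brighter probe ran from 9.65 over 9.89 to 10.92 in VTA and from 10.46 over 10.59 to 10.79 in NAc, a difference of -0.58 ± 0.09 (adjusted p = 1.61e-05, limma). Its overlap was made by VTA unsusceptible pool 3, the highest of all 18 pools, and without that pool the difference was -0.67. The dimmer probe had 8.27, 8.24 and 8.18 in VTA susceptible pools, 8.15, 8.06 and 8.18 in VTA unsusceptible pools and 8.18, 8.22 and 8.43 in VTA control pools. In NAc it had 7.30, 7.67 and 7.30 in susceptible, 7.67, 7.59 and 7.40 in unsusceptible and 7.46, 7.73 and 7.16 in control pools. Every VTA pool thus lay above every NAc pool on this probe, by 0.74 ± 0.07 on average (adjusted p = 3.79e-09, limma). With the mean of both probes the difference was 0.0792 (adjusted p = 0.359, limma; 2.23e-08 to 0.359 over the alternatives), so Kcnc1 has no settled direction between the structures. Of the 13 genes with several probes, Kcnc1 was the one called in both directions, which held for 2.04% of the 7159 such genes on the array.

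**Figure D2:**
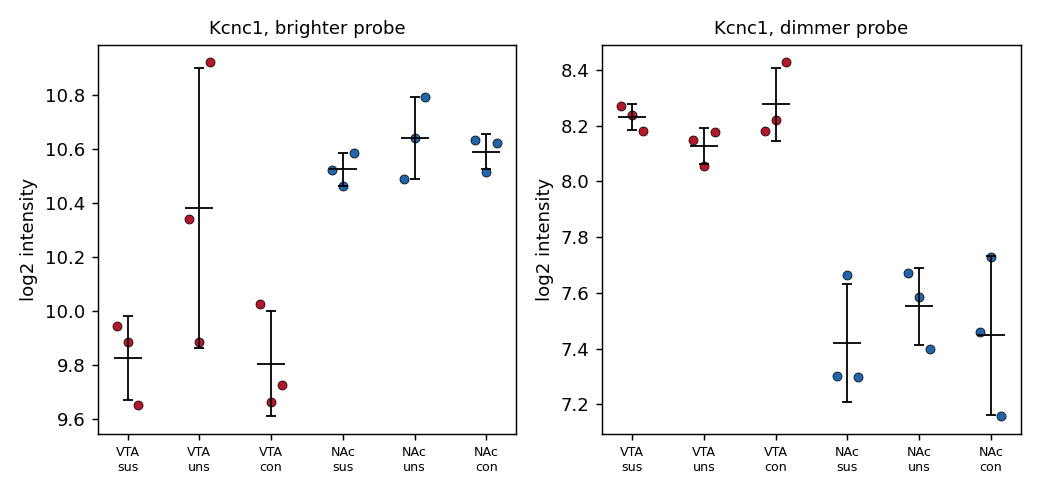
Log2 intensity of the brighter (left) and the dimmer (right) probe of Kcnc1 in each pool (sus, susceptible; uns, unsusceptible; con, control), with the group mean and SD (n = 3). On the left most VTA pools lie below NAc and VTA unsusceptible pool 3 reaches 10.92; on the right all 9 VTA pools lie above all 9 NAc pools.

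Of the 3 Shal-type Kcnd genes, which carry the somatodendritic A-type current, 2 were lower in VTA and none was higher. Kcnd2 had 8.96, 9.15 and 9.62 as lowest, median and highest values in VTA, against 9.50, 10.31 and 10.69 in NAc. VTA unsusceptible pool 3 and NAc unsusceptible pool 3 made the overlap, and the intensity was 1.98-fold lower in VTA (adjusted p = 5.01e-08, limma). Kcnd1 averaged 8.26 ± 0.17 in VTA and 8.47 ± 0.08 in NAc (-0.21, adjusted p = 0.00467, limma); with median scaling in place of quantile normalization its adjusted p was 0.0627 (limma; 0.00198 to 0.0627 over the alternatives). A second Kcnd1 probe differed by -0.04 and was not called. Kcnd3, the subunit linked to the pacemaker rate of dopamine neurons in mice, averaged 7.89 in VTA and 7.86 in NAc and was not called (adjusted p = 0.780, limma).

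Of the 8 modifier genes, 1 was higher, 2 were lower and 5 were not called, and 4 of the 8 were below the median probe. Kcng4 gave the largest difference upward in the family. It had 9.97, 10.15 and 10.62 in VTA susceptible pools, 10.15, 10.31 and 8.60 in VTA unsusceptible pools and 10.07, 10.26 and 10.42 in VTA control pools, while NAc pools ran from 7.39 to 8.29. Its intensity was 4.96-fold higher in VTA (2.31 ± 0.16, adjusted p = 1.46e-11, limma). The value of 8.60 belongs to the pool with the low dopamine list, and without that pool the difference was 2.50. A second Kcng4 probe differed by 0.03 and was not called.

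Kcns2 averaged 8.13 ± 0.22 in VTA and 8.97 ± 0.11 in NAc without overlap (-0.84, adjusted p = 3.64e-10, limma). Kcng2 averaged 7.49 ± 0.13 and 7.72 ± 0.15 in the same order, with overlap (-0.24, adjusted p = 0.00766, limma). Without the 3 arrays that stood apart its adjusted p was 0.0508 (limma; 0.00217 to 0.0508 over the alternatives). Kcns1 just missed the threshold at -0.13 (adjusted p = 0.0563, limma), and Kcng3, Kcns3, Kcnv1 and Kcnv2 differed by -0.05 to 0.10.

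Kcnq5, a subunit of the M-current that muscarinic receptors shut off, was lower in VTA. Its VTA pools ran from 7.34 over 7.57 to 7.76, close to the median probe, and its NAc pools from 8.76 over 9.29 to 9.82. Without overlap, the intensity was 3.16-fold lower in VTA (-1.66 ± 0.08, adjusted p = 5.57e-15, limma). Kcnq1, the pore of a slow cardiac current, averaged 7.60 in VTA and 7.59 in NAc, and none of its 5 probes was called. Its antisense transcript Kcnq1ot1 averaged 7.01 in VTA and 7.02 in NAc.

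Of the 7 Kcnh genes, 1 was higher, 2 were lower and 4 were not called, and the class held the largest difference downward. Kcnh1, of the ether-a-go-go type, had 8.70, 9.07 and 8.75 in VTA susceptible pools, 8.76, 8.97 and 8.55 in VTA unsusceptible pools and 8.58, 8.60 and 9.04 in VTA control pools. NAc values were 11.17, 11.33 and 11.18 in susceptible, 10.81, 11.12 and 10.87 in unsusceptible and 11.42, 11.27 and 11.23 in control pools. The structures were far apart and the intensity was 5.20-fold lower in VTA (-2.38 ± 0.07, adjusted p = 2.17e-18, limma); a second, uncalled probe differed by 0.0021. Kcnh5, the close relative of Kcnh1, averaged 7.71 ± 0.11 in VTA and 8.12 ± 0.14 in NAc without overlap (-0.41, adjusted p = 7.03e-06, limma). Kcnh2, of the ERG type that carries the cardiac rapid delayed rectifier, averaged 9.40 ± 0.11 in VTA and 8.43 ± 0.20 in NAc, also without overlap, and was 1.96-fold higher (adjusted p = 1.16e-11, limma). A second Kcnh2 probe differed by 0.009 and was not called. The ERG relatives Kcnh6 and Kcnh7 differed by -0.05 each, and Kcnh4 and Kcnh8, of the ELK type, by -0.14 and 0.02; none passed.

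Of the 5 Kcne genes, which encode small single-pass partners of several pores, 1 was called. Kcne1l, also known as Kcne5, averaged 10.03 ± 0.07 in VTA and 9.35 ± 0.18 in NAc without overlap (0.68, adjusted p = 6.66e-09, limma). Kcne1, Kcne2, Kcne3 and Kcne4 differed by -0.05 to 0.08, and the first 3 of these were below the median probe.

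**Figure D3:**
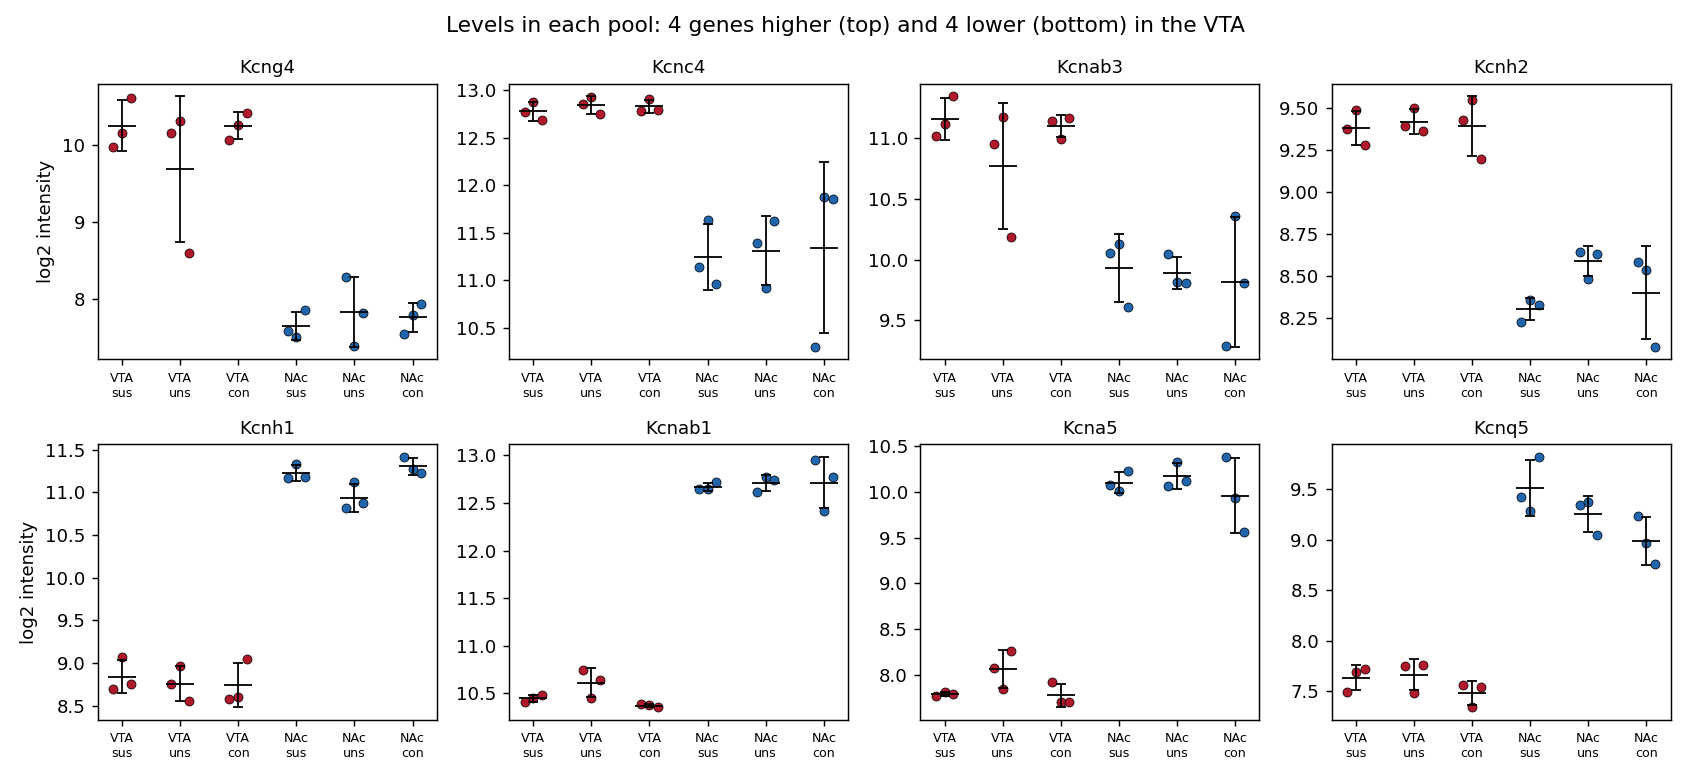
Log2 intensity in each pool (points), with the group mean and SD (n = 3), for 4 genes higher in VTA (top) and 4 lower (bottom); sus, susceptible; uns, unsusceptible; con, control. VTA unsusceptible pool 3 is the low VTA point at 8.60 for Kcng4 and at 10.19 for Kcnab3, while the 4 lower genes have no VTA pool within the NAc range.

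Pools not overlapping between structures numbered 14 of 40 genes, 7 above and 7 below, against a background of 11.5% of all probes and 19.0% of the brightest probes of named genes. The same contrast within control mice alone, 3 VTA against 3 NAc pools in the same limma fit, called 17 of 40 genes, 7 higher and 10 lower, against 19.4% of all probes (10.5% higher and 8.97% lower) and 29.4% of the brightest probes of named genes. The calls over all pools that were missing there were Kcnc2 (0.22, adjusted p = 0.179), Kcna1 (-0.35, adjusted p = 0.172; -0.53 without VTA control pool 3 and -0.21 without VTA control pool 2) and Kcng2 (-0.31, adjusted p = 0.0668). Kcna3, which was not called over all pools, stood just outside the threshold there (-0.30, adjusted p = 0.0505, limma). The others, such as Kcng4 at 2.48 and Kcnh1 at -2.57, were called in both. These 2 contrasts share the control pools.

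Other cell types also differed between the dissections. The oligodendrocyte list was higher in VTA in 5 of 5 genes (median 0.94), and the astrocyte list in 4 of 5. Both subcortical excitatory genes (median 4.26) and both measured serotonin genes (median 2.93) were higher in VTA, and all 3 measured microglia genes were lower (median -0.28). The cortical excitatory list averaged 8.71 to 9.51 in VTA pools and 8.90 to 10.77 in NAc pools, with 3 of its 4 measured genes lower in VTA and 1 higher. The part of these cells in the channel differences was not tested.

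Partners of the channel complexes went both ways. Of 25 listed genes 22 were measured, of which 8 were higher and 8 lower in VTA, against the 28.0% of all probes and 40.8% of the brightest probes of named genes called. The median was 0.03, against -0.0013 over all probes. Kcnip2, the calcium sensor that binds Shal-type pores, was 4.48-fold lower in VTA (adjusted p = 2.06e-17, limma), and Dpp6, a transmembrane accessory protein of those pores, was lower by a log2 difference of -0.61. Among the scaffolds that cluster Shaker-type channels, Dlg4 was 2.47-fold lower and Dlg2 2.17-fold lower. Epb41l3 (1.79-fold) and Cntn2 (1.76-fold), which hold Shaker-type channels beside the nodes of myelinated axons, were higher in VTA, as was Vapb (1.86-fold), which tethers Kcnb channels to the endoplasmic reticulum. The list and the family were read from the same arrays and the list was chosen with earlier results known.

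Promoter sequence was set beside the regional difference for the called genes with the 2 largest differences each way among those with exactly 1 RefSeq promoter entry (GRCm38.p6). The 250 bases before the start site are shown 5′ to 3′ on the strand of the gene, with each GC box (GGGCGG or CCGCCC, the core of the Sp1 site) in capitals. Kcng4 and Kcnc4 were higher in VTA, and Kcnh1 and Kcna5 were lower.
Kcng4: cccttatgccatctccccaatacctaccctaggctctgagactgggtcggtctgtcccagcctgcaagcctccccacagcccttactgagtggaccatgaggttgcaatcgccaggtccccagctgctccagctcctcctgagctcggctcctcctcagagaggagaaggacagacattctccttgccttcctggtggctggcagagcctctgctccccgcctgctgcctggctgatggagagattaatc
Kcnc4: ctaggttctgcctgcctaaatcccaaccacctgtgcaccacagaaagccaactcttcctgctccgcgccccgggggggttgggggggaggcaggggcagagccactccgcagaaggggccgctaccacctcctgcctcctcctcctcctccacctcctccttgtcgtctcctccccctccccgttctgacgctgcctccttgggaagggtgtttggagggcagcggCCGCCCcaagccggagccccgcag
Kcnh1: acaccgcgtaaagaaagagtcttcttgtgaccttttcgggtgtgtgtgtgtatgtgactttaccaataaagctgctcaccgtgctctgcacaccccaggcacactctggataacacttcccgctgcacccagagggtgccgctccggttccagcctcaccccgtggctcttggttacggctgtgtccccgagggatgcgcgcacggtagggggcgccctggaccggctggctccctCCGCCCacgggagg
Kcna5: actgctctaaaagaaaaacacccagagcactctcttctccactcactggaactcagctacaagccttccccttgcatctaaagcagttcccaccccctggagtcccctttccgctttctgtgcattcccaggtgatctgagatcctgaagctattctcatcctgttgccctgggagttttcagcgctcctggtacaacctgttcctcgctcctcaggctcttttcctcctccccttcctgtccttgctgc
The windows lie at chr8:119635681-119635930 (minus strand) for Kcng4, chr3:107458899-107459148 (minus strand) for Kcnc4, chr1:192190527-192190776 (plus strand) for Kcnh1 and chr6:126535556-126535805 (minus strand) for Kcna5. Kcnc4 and Kcnh1 hold 1 GC box each, and Kcng4 and Kcna5 none, so the letters do not follow the direction of the difference in these 4 genes. None of them holds the cyclic AMP response element TGACGTCA, the E-box CACGTG or the TATA letters TATAAA on either strand. Over 32851 windows of the same length, 32.7% held a GC box, 1.5% the response element, 6.0% the E-box and 12.4% the TATA letters; no motif contains another.

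Promoter entries existed for 31 of the 40 genes, 24 of them with exactly 1. GC boxes were in 4 of 10 windows of genes higher in VTA, 6 of 11 windows of genes lower there and 12 of 21 windows of uncalled genes. The median GC content was 59.6%, 60.8% and 58.0% in these sets, against 52.4% over all windows. A match is a description of letters, not a binding site.

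Social defeat moved no gene of the family past the threshold. In each of the 6 comparisons between behaviour groups within a structure, limma called 0 of 40 genes. The background was thin too: 0.0652% of all probes passed in NAc susceptible against NAc control, 0.00225% in NAc unsusceptible against NAc control, 0.00225% in NAc susceptible against NAc unsusceptible, 0.00225% in VTA susceptible against VTA control, 0.00674% in VTA unsusceptible against VTA control and 0 probes in VTA susceptible against VTA unsusceptible. Members with an unadjusted p below 0.05 were 4, 3, 4, 1, 4 and 4 of 40 in this order, against 8.23%, 11.5%, 4.41%, 3.46%, 6.85% and 5.54% of all probes. None of these shares is a result about the family. The comparisons with control share the control pools of their structure, and with 3 pools a group a missed threshold does not show that values were alike.

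Kcnq5 came nearest in NAc susceptible pools. Its log2 intensities were 9.42, 9.29 and 9.82 in NAc susceptible pools, 9.35, 9.38 and 9.05 in NAc unsusceptible pools and 9.24, 8.97 and 8.76 in NAc control pools. All susceptible pools lay above all control pools, by 0.52 ± 0.13 (SE), with an unadjusted p of 0.000711 and an adjusted p of 0.186 in the limma fit. The unsusceptible pools overlapped the control pools. In VTA the gene sat at 7.49, 7.69 and 7.72 in susceptible pools and 7.57, 7.34 and 7.54 in control pools, and the difference of the 2 susceptible effects, VTA minus NAc, was -0.37 (adjusted p = 0.812, limma) and -0.21 without NAc susceptible pool 3.

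Kcna3 was lower than control in NAc pools of both defeated groups without passing the threshold. It had 7.98, 8.02 and 8.18 in NAc susceptible pools, 8.06, 8.20 and 8.12 in NAc unsusceptible pools and 8.36, 8.31 and 8.60 in NAc control pools. No defeated pool reached a control pool. The differences were -0.37 ± 0.11 in susceptible (adjusted p = 0.265, limma) and -0.30 ± 0.11 in unsusceptible pools (adjusted p = 0.260, limma). Both use the same 3 control pools, and with median scaling the unsusceptible difference was 0.0142.

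Kcnh6, an ERG-type subunit of the nervous system, rested on 1 control pool. Its values were 9.04, 8.70 and 8.88 in NAc susceptible pools, 8.94, 8.73 and 8.35 in NAc unsusceptible pools and 9.03, 8.96 and 9.88 in NAc control pools. The unsusceptible pools lay below all control pools by -0.62 ± 0.17 (adjusted p = 0.138, limma). Control pool 3, the array with the lowest upper quartile, held the value of 9.88, and without it the difference was -0.33. The susceptible difference of -0.41 was -0.12 without that pool. Kcnh1 was also below control in unsusceptible pools, by -0.37 ± 0.13 (adjusted p = 0.241, limma); its values are given above, and with median scaling the difference was 0.21.

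Blood genes, mainly globins, differed in the same NAc arrays. Of the 4 listed, 3 were called higher in susceptible than in control pools and 0 in unsusceptible than in control pools, where 3 had an unadjusted p below 0.05 (limma). The list averaged 12.39 to 12.74 in susceptible pools, 11.53 to 12.08 in unsusceptible pools and 11.01 to 11.48 in control pools. The cortical excitatory list averaged 9.72 to 10.46, 9.62 to 10.77 and 8.90 to 10.68 in these groups, and the medium spiny list 12.20 to 12.58, 12.13 to 12.60 and 12.12 to 12.61. The part of these cells in the NAc values was not tested.

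Between the defeated groups in NAc, Kcnh8 (-0.31 ± 0.12), Kcnd2 (0.46 ± 0.19) and Kcnh2 (-0.28 ± 0.12) had the smallest p-values, susceptible minus unsusceptible, and each had an adjusted p of 0.999 in the limma fit. Kcnd2 was at 0.24 without NAc unsusceptible pool 3, and Kcnh8 at -0.17 without NAc susceptible pool 1 and -0.50 without NAc susceptible pool 2. Kcnh2 was the one of these 3 without overlap, with 8.23, 8.36 and 8.33 in susceptible pools, against 8.65, 8.49 and 8.63 in unsusceptible pools.

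In VTA susceptible pools the Shal-type gene Kcnd1 had 8.29, 8.25 and 8.35, against 7.86, 8.25 and 8.17 in VTA control pools, a difference of 0.21 ± 0.10 with an unadjusted p of 0.0437. Without VTA control pool 1, which held the 7.86, it was 0.09. Kcne2 (0.28 ± 0.14) and Kcna10 (-0.17 ± 0.10) followed, both from probes below the median probe. Kcne2 was at 0.12 without VTA susceptible pool 2, 0.18 without VTA control pool 1 and 0.45 without VTA susceptible pool 3. The adjusted p of all 3 was 0.9999 in the limma fit. In the same comparison all 4 blood genes were higher at an unadjusted p below 0.05 (median 1.17) and 3 of 5 oligodendrocyte genes lower (median -0.23), none past the adjusted threshold (limma); their part was not tested.

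In VTA unsusceptible pools the Shaw-type genes Kcnc1 and Kcnc2 and the Shal-type gene Kcnd1 were nearest to the threshold. Kcnc1 had 10.34, 9.89 and 10.92 in unsusceptible pools, 9.94, 9.88 and 9.65 in susceptible pools and 10.02, 9.66 and 9.73 in control pools on its brighter probe. The unsusceptible pools spread widely, and 1 of them lay within the control range. The difference was 0.58 ± 0.16 from control (adjusted p = 0.463, limma), and that of susceptible minus unsusceptible was -0.56 ± 0.16 (adjusted p = 0.871, limma). The dimmer probe went the other way, at -0.15 from control and 0.10 for susceptible minus unsusceptible (adjusted p = 0.873 and 0.968, limma).

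Kcnc2 had 8.49, 8.44 and 8.94 in VTA unsusceptible pools, against 8.37, 8.30 and 8.19 in VTA control pools (0.34 ± 0.11, adjusted p = 0.490, limma). Kcnd1 had 8.45, 8.31 and 8.42 in VTA unsusceptible pools, against the control values given above (0.30 ± 0.10, adjusted p = 0.495, limma), and without VTA control pool 1 the difference was 0.18. Pool 3 was the highest unsusceptible pool for both Kcnc genes. Without it the Kcnc1 difference from control was 0.31, the Kcnc2 difference 0.18 and the Kcnc1 difference of susceptible minus unsusceptible -0.29. This is the pool in which the dopamine list averaged 9.85, the serotonin list 7.12 and that of Pvalb, Gad1 and Tac1 averaged 11.74. It was the lowest of the VTA pools on all 3. Its oligodendrocyte (12.84), astrocyte (11.79), medium spiny (8.48) and endothelial (10.35) lists were also the lowest of the VTA pools. Its subcortical excitatory list (13.79) was the highest of them. The oligodendrocyte list averaged 12.84 to 13.24 in VTA unsusceptible pools, against 13.47 to 13.61 in VTA control pools, with 2 of 5 genes called lower (limma). The part of these cells in the values was not tested. Susceptible minus unsusceptible, Kcna10 (-0.22) and Kcns2 (-0.27) had an adjusted p of 0.897 in the limma fit; Kcns2 was at -0.12 without unsusceptible pool 3 and -0.41 without unsusceptible pool 2.

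**Figure D4:**
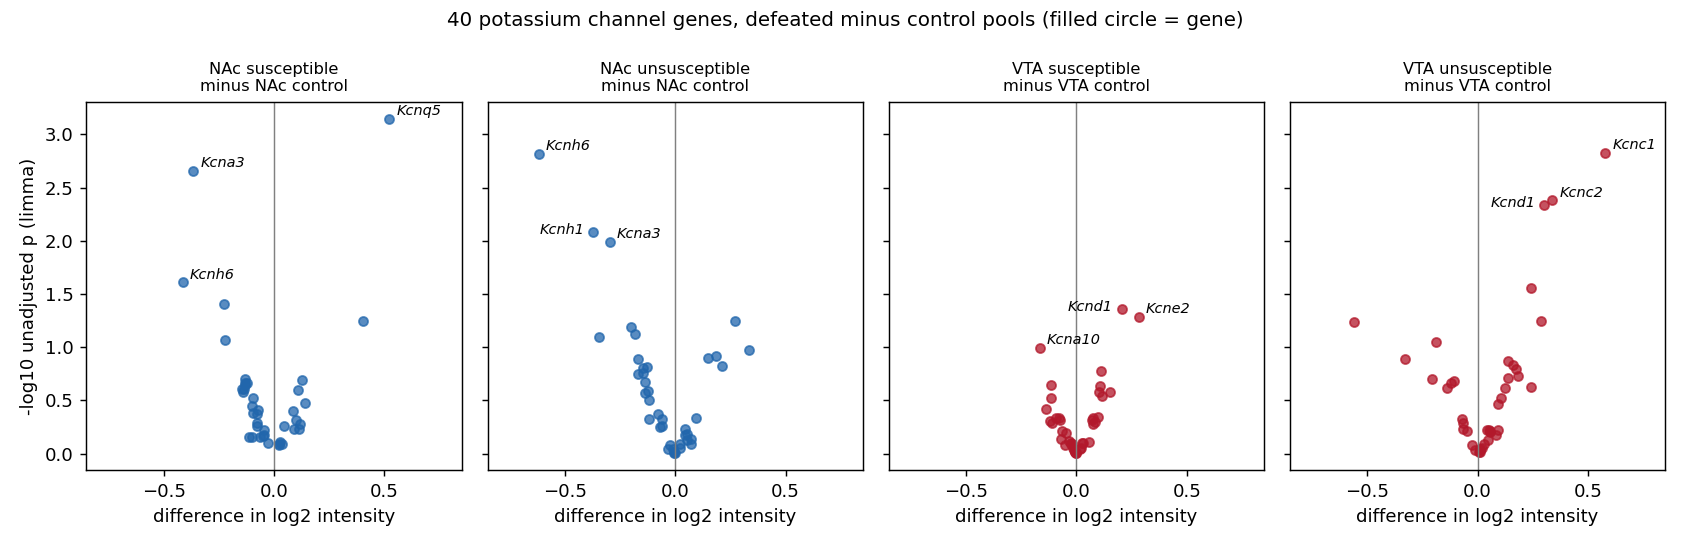
Difference in log2 intensity (horizontal) and -log10 of the unadjusted limma p (vertical) for the 40 genes in defeated against control pools of each structure (3 pools each); the 3 genes of smallest p are named. The largest named values are -0.62 for Kcnh6 in NAc unsusceptible and 0.58 for Kcnc1 in VTA unsusceptible pools, and no point passed an adjusted p of 0.05.

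Whether defeat acted alike in both structures was asked as an interaction, the VTA difference minus the NAc difference. Limma called 0 of 40 genes and 0 of all probes, for susceptible and for unsusceptible pools. At an unadjusted p below 0.05 there were 2 of 40 genes for susceptible pools, Kcna3 (0.34) and Kcnd1 (0.28, and 0.17 without VTA control pool 1), against 6.35% of all probes. For unsusceptible pools there were 7 of 40, all positive, against 10.6% of all probes in either direction: Kcnh6 (0.71), Kcnc1 (0.52), Kcnc2 (0.51), Kcna3 (0.46), Kcnh1 (0.39), Kcnd1 (0.38) and Kcnab2 (0.27). The smallest adjusted p among them was 0.282, for Kcnc2 (limma). All 7 values rest on the same unsusceptible and control pools, so their common sign is not a result about the family. The values of Kcnc1, Kcnc2 and Kcnh6 include the pools named above; that of Kcnh6 was 0.42 without NAc control pool 3.

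Non-overlapping pools between behaviour groups were close to the background. They numbered 5, 4 and 2 of 40 genes in the 3 NAc comparisons (susceptible against control, unsusceptible against control, susceptible against unsusceptible), against 12.5%, 14.1% and 10.3% of all probes. In VTA they numbered 5, 7 and 5, against 9.19%, 12.6% and 9.83%. The 7 genes in VTA unsusceptible against control pools were Kcnab1, Kcnab2, Kcnc2, Kcnd1 and Kcnh6 (above) and Kcna2 and Kcnv2 (below). The median absolute difference of the 40 genes was 0.10, 0.12 and 0.07 in NAc and 0.07, 0.10 and 0.09 in VTA in the same order, against 0.08, 0.09 and 0.07 and against 0.06, 0.08 and 0.07 over all probes. The pooled SD within groups ran from 0.04 for Kcnq1ot1 to 0.47 for Kcng4. None of the 22 measured partner genes was called in any of the 6 comparisons. At an unadjusted p below 0.05 they numbered 4, 6 and 1 in NAc and 0, 3 and 1 in VTA of 22, beside the shares of all probes given above (8.23%, 11.5% and 4.41% in NAc, 3.46%, 6.85% and 5.54% in VTA).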

How the data were processed

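RNA of 18 tissue pools was hybridised to one-colour oligonucleotide arrays. For each pool the authors deposited 1 linear intensity per probe for 44547 probes. Of these, 42 probes lack a value on at least 1 array and were left out. The submitters' processing notes name affy; the sources used here do not name scanner software or background correction. The authors' normalized intensity table of the whole series served only as an alternative. All members had a gene symbol from the platform annotation, and all 40 were found in RefSeq by Entrez identifier with unchanged symbols.

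Intensities were log2-transformed and quantile-normalized between arrays (limma 3.58.1, R 4.3.3). One mean per group was fitted over all 18 arrays with moderated variances (12 residual and 11.7 prior degrees of freedom, intensity trend). P-values are two-sided and adjusted by Benjamini-Hochberg over 44505 probes within a contrast; the threshold was 0.05. No filter on low values was used. The fit was tested on simulated data with 200 changed probes, all of them bright, with large changes and independent noise. That test does not cover dim probes, small changes or shifts shared by many probes of an array. The number of arrays limits the precision. Fold changes compare log2 intensities of 1 probe between groups and can understate changes near background.

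Each gene is given by its brightest probe. Named were up to 12 genes per direction between structures, the 3 of smallest p in each behaviour contrast, and genes whose probes disagree past the threshold. Dpp6, Pvalb, Gad1, Tac1, second probes and the interaction values of Kcnc1, Kcnh1, Kcnd1 and Kcnab2 were chosen after their values were seen. The members, the lists and the tests were chosen with earlier results of these data known. Alternatives were the authors' normalized table, median scaling, an offset of 50, bright probes only, each structure alone, a replicate block, no trend, array weights, the mean of a gene's probes, and leaving out arrays.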

Additional observations from a re-analysis of the deposited data

Results flagged for a closer look

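Kcnh6 stood out because its unsusceptible pools lay on opposite sides of control in VTA and NAc. In unsusceptible pools all 3 VTA values (9.03, 8.96 and 8.98) lay above all 3 VTA control values (8.93, 8.83 and 8.94), and all 3 NAc values (8.94, 8.73 and 8.35) lay below all 3 NAc control values (9.03, 8.96 and 9.88). The difference between the 2 effects, VTA minus NAc, was 0.71 ± 0.24 (SE) on the log2 scale, with an adjusted p of 0.317 in the limma fit, so it did not pass. The size rested on NAc control pool 3: without it the difference was 0.42. Without that pool and the other 2 arrays that stood apart it was 0.26.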

How the results depend on the processing

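The counts between structures (8 higher and 12 lower over all pools, 7 and 10 in control mice) stayed within 1.5 times under every alternative run. Of 1249 recomputed values of 64 named results, 1231 kept direction and side of the threshold, 6 lost a call, 8 gained one and 4 changed sign. The sign changes were Kcnc1 with the mean over all its probes (0.0792 over all pools and 0.0227 in control mice) and, in NAc unsusceptible against control pools, Kcnh1 (0.21) and Kcna3 (0.0142) with median scaling. Calls in behaviour contrasts appeared in few settings. In NAc unsusceptible against control pools 3 genes (Kcna4, Kcna5 and Kcnq5, at 0.72, 0.74 and 0.72) were called with median scaling, which called 1229 probes. Leaving out arrays gave 0 to 1 there, 1 without NAc control replicate 2 (Kcnh6, -0.78, 404 probes called). In VTA unsusceptible against control pools and in VTA susceptible against unsusceptible pools it gave 0 to 1, the 1 being Kcnc1 without VTA unsusceptible replicate 2 (0.82 and -0.80, with 270 and 138 probes called). The other calls lost were those of Kcnd1 and Kcng2 given above and, in control mice, Kcnh5, Kcnc1 and Kcnd1 with median scaling and Kcnh5 without NAc control replicate 1. Causes were not tested. Deviations of same-numbered arrays correlated with r from -0.09 to 0.30, above 0.1 in 14 of 45 pairs. Arrays with different numbers were not compared in this way, so these values cannot show whether the numbers pair the samples. The main fit did not pair them. With a replicate block the counts were again 8 higher and 12 lower over all pools, 7 and 10 in control mice, and 0 in all others.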

Other observations

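Kcnc4 scattered in NAc, and its values were set beside the marker lists. Over the 9 NAc pools, Kcnc4 and the medium spiny list correlated with r = -0.887 (permutation p = 0.00116, adjusted p = 0.0984) and rho = -0.933 (permutation p = 0.00075, adjusted p = 0.0899), and r was -0.862 without the 2 pools farthest from the median of the list. With the cortical excitatory list r was 0.849 (permutation p = 0.00442, adjusted p = 0.110) and rho 0.70 (permutation p = 0.0433, adjusted p = 0.365), and r was 0.688 without the 2 farthest pools. The cortical and medium spiny lists tended to run against each other, at 8.90 and 12.61 in NAc control pool 1 and 10.77 and 12.13 in NAc unsusceptible pool 3. NAc control pool 2 departed from this, at 9.91 and 12.12. The 2 relations are thus not independent of each other. These were 2 of 120 relations between the 40 genes and 3 lists, chosen after their values were seen, and 0 of the 120 passed an adjusted p of 0.05. In VTA, the relations of Kcng4, Kcnab3 and Kcnc1 with the dopamine list (r = 0.942, 0.945 and -0.937) were weaker without the 2 farthest pools, at 0.504, 0.176 and -0.395. Those were unsusceptible pools 1 and 3, with list means of 11.49 and 9.85. They were left out only together, so the weight of each was not tested.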
